A study of Mus musculus with 18 samples.

Results

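This account follows 10 heat shock and chaperone genes in hippocampal tissue, comparing WT with cyclin Y knockout (*Ccny* KO) mice before and after training in the Morris water maze. The rule that chose the genes uses their names and no measured value, and it was written with earlier results of these data known. They are *Hspa1a*, *Hspa1b*, *Hspa5*, *Hspa8*, *Hsp90aa1*, *Hsp90ab1*, *Hsp90b1*, *Hsph1*, *Dnajb1* and *Hspa4*. All 10 were present among the 15329 genes listed, and each passed the filter on low values. RNA of 18 C57BL/6J mice aged 8 to 10 weeks was sequenced, in 6 groups of 3, and the labels name a mouse and a replicate number for every library without saying more of their origin, so p-values measure the spread between these samples. WT_Basal and KO_Basal mice had no maze training. WT_OL and KO_OL mice had completed original learning, in which a hidden platform is found by swimming, and WT_RL and KO_RL mice had completed original and then reversal learning with the platform moved. The labels give the KO mice as *Ccny* knockout without the design of the allele. Bulk hippocampal tissue was used, so fewer cells of a type and less RNA per cell cannot be told apart. The interval between the last swim and dissection is not given in the sources used here.

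Heat shock proteins are molecular chaperones that hold, fold or release other proteins with the energy of ATP. Hsp70 proteins bind short hydrophobic stretches, Hsp40 proteins (J-domain proteins) deliver clients to Hsp70 and start ATP hydrolysis, Hsp110 proteins exchange the nucleotide, and Hsp90 proteins finish the folding of kinases and steroid receptors. In the cytosol, heat and misfolded protein release the transcription factor HSF1, which binds heat shock elements in the promoters of its targets. In the endoplasmic reticulum, a separate programme, the unfolded protein response, raises the chaperones of that compartment through factors that include XBP1 and ATF6. In neurons the constitutive members are abundant, and the inducible Hsp70 genes are low until a stimulus arrives.

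Promoter sequences are shown because both response elements can be read in them. RefSeq promoters (GRCm38.p6, 250 bases before and 50 after a start) were found for 7 of the 10 genes, and *Hspa8*, *Hsp90aa1* and *Hsp90ab1* had no entry. These were 9 promoters, since *Hsph1* and *Dnajb1* had 2 starts each. The motifs searched on both strands were the paired heat shock units GAANNTTC and TTCNNGAA, and the endoplasmic reticulum stress element, which is CCAAT, any 9 bases and CCACG. Of 32851 promoters in that table, 15.1% held either paired unit and 0.119% held the stress element. The 150 bases that end at the base before the start are given 5′ to 3′ on the strand of the gene, with the fixed letters of each motif in capitals. The first 2 lines are *Hspa1a* at chr17:34972157-34972306 and *Hspa1b* at chr17:34959239-34959388, then *Hsph1* at chr5:149636337-149636486, *Hspa5* at chr2:34771940-34772089 and *Hsp90b1* at chr10:86705445-86705594.
Hspa1a: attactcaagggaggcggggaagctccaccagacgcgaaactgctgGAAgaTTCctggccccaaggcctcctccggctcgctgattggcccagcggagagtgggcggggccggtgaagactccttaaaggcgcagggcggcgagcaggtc
Hspa1b: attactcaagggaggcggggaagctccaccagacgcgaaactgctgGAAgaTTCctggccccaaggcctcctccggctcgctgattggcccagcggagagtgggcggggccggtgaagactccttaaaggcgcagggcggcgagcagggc
Hsph1: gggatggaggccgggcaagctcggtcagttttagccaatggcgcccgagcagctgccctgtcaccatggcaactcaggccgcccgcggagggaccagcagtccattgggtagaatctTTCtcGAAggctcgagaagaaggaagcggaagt
Hspa5: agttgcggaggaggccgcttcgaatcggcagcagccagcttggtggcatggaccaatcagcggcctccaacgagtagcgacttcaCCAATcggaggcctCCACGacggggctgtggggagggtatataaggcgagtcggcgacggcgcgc
Hsp90b1: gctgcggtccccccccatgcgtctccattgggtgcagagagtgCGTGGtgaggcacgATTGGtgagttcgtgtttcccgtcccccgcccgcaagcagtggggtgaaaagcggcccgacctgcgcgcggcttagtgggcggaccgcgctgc

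The *Hspa1a* and *Hspa1b* windows differed at 1 of 150 positions and share a paired unit at bases -104 to -97 from the start. *Hsph1* held a paired unit at bases -33 to -26 and, just after the start at chr5:149636288-149636300, 3 alternating units in a row, TTCtgGAAagTTC, an arrangement that 0.603% of the promoters held. Counted from the other *Hsph1* start, whose window is not shown, the same pair lies at bases -54 to -47. *Hspa5* held the stress element at bases -65 to -47. *Hsp90b1* held it on the opposite strand at bases -107 to -89, where it reads as its reverse complement above, and once more on the gene's strand at bases -212 to -194, outside the window shown. None of these motifs was found in the 300 bases of the *Hspa4* promoter or of either *Dnajb1* promoter. The window of one *Dnajb1* start, chr8:83608398-83608547, lies within the gene. A match is a description of letters and not a measured binding site.

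Depth was ample for all members, with 29248557 to 37915576 reads per library on listed genes and at least 144 reads behind the lowest value of *Hspa1a*. *Ccny* lay between 106.6 and 158.5 CPM (reads of a gene scaled to library size) in the 9 WT libraries and between 74.0 and 95.8 CPM in the 9 KO libraries, without overlap. All 8 markers of hippocampal neurons were expressed, with a sum of 6746 to 8147 CPM. The sum of 8 choroid plexus markers ranged from 42.3 to 8458 CPM over the libraries. By the mapping rates of the study, all untrained libraries and the WT_OL libraries other than replicate 3 mapped at lower rates than the rest. The part of this in the results was not tested. Libraries of WT_RL replicate 3 and WT_OL replicate 2 stood apart most from the others of their group, with an SD over genes of the log2 difference of 0.383 and 0.339 against 0.149 to 0.321 in the other 16, and results that rest on them are given with and without them. All fold changes are on the log2(CPM + 1) scale, which understates changes of low genes, and come from limma with Benjamini-Hochberg adjustment over the 15329 genes. A gene is called at an adjusted p-value under 0.05. Shares of all genes are from the fit over all libraries, and none was computed for fits with libraries left out or other settings.

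Before training, the cytosolic Hsp90 and constitutive Hsp70 genes were the most abundant members and the inducible Hsp70 genes the least. Per kilobase of exon in WT_Basal, *Hsp90ab1* stood at 596 ± 47.3 CPM (SD, n = 3), *Hspa8* at 318 ± 17.4, *Hsp90aa1* at 282 ± 14.4, *Hsp90b1* at 87.7 ± 4.45, *Hspa4* at 54.3 ± 3.16, *Hspa5* at 54.0 ± 6.64, *Hsph1* at 39.2 ± 3.22, *Dnajb1* at 14.1 ± 0.153, *Hspa1b* at 2.37 ± 0.448 and *Hspa1a* at 1.89 ± 0.0431. Of the neighbours in this order, *Hspa8* and *Hsp90aa1* overlapped between mice, as did *Hspa4* and *Hspa5*, and the others were apart. The order depends on the length used, the union of all annotated exons, and other lengths were not tried. In CPM not divided by length, *Hspa4* (284 to 319) and *Hsph1* (264 to 310) overlapped in WT_Basal. The levels of *Hspa1a* and *Hspa1b* use full exon length, although reads could be lost between these near-identical copies. Between the genotypes at this stage 2 members lay apart without overlap, *Dnajb1* above in KO_Basal and *Hspa1a* below, where 7.05% of all genes lay above and 7.67% below. For KO_Basal against WT_Basal, limma called 0 of 10 members, and 0 had an unadjusted p-value under 0.05, where 0.0196% of all genes were called. The log2 differences lay between -0.19 and 0.17.

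**Figure D1:**
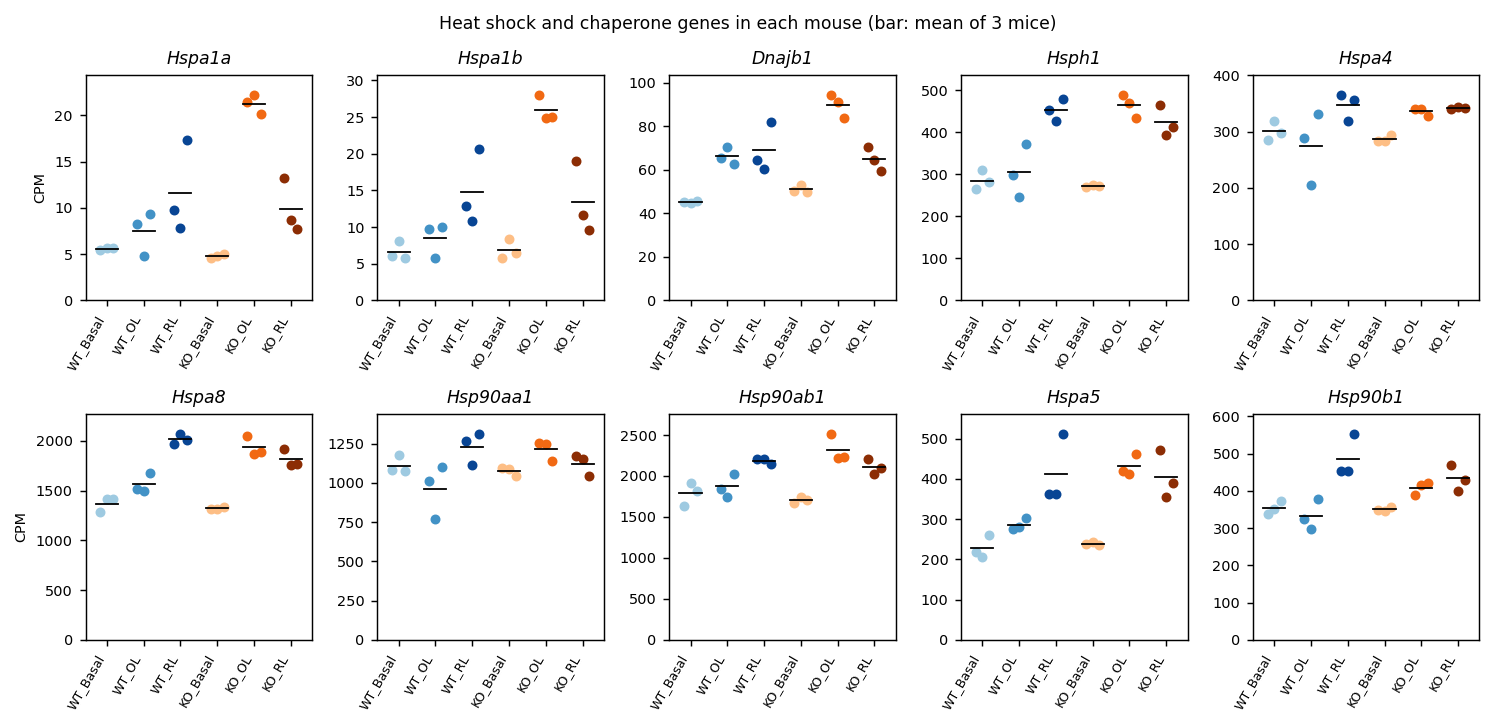
CPM (y axis, from 0) of each gene in each mouse, as points for the 3 mice of each of the 6 groups on the x axis and a bar at their mean. The KO_OL mice hold the highest *Hspa1a*, *Hspa1b* and *Dnajb1* values of all mice. The WT_Basal and KO_Basal mice lie low in the *Hspa1a* and *Hspa1b* panels and are the lowest points of the *Dnajb1* panel, near its middle height.

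The inducible Hsp70 pair moved most. *Hspa1a* (chr17:34969190-34972156) and *Hspa1b* (chr17:34956436-34959238) are neighbouring copies that encode almost the same stress-inducible cytosolic Hsp70. Of the 100-base stretches of the *Hspa1a* transcript, 47.1% also occur in *Hspa1b*, so reads could be split or lost between them, and *Hspa1a* also overlaps *Gm20481* on the other strand. In WT_Basal, *Hspa1a* stood at 5.46, 5.66 and 5.70 CPM in replicates 1 to 3, in WT_OL at 8.22, 4.84 and 9.33, and in WT_RL at 9.80, 7.80 and 17.4. In KO_Basal it stood at 4.58, 4.78 and 5.01 CPM, in KO_OL at 21.5, 22.2 and 20.1, and in KO_RL at 13.3, 8.74 and 7.67. Every KO_OL mouse was above every other mouse, whereas WT_OL overlapped WT_Basal.

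*Hspa1b* followed the same course. It stood at 6.03, 8.09 and 5.83 CPM in WT_Basal, at 9.73, 5.73 and 10.1 in WT_OL, and at 12.8, 10.8 and 20.6 in WT_RL. In the KO mice it stood at 5.85, 8.39 and 6.51 CPM in KO_Basal, at 28.00, 24.92 and 25.04 in KO_OL, and at 19.0, 11.7 and 9.57 in KO_RL. Again each of the KO_OL mice exceeded all others. A sum over both copies sets aside how reads were split between them but does not restore reads lost to both. Its mean rose from 11.7 ± 1.38 CPM (SD, n = 3) in KO_Basal to 47.3 ± 2.16 in KO_OL and was 23.3 ± 7.92 in KO_RL. In WT mice the sum was 12.3 ± 1.30 CPM in WT_Basal, 16.0 ± 4.74 in WT_OL and 26.4 ± 10.2 in WT_RL. *Hspa1a* made up 36.3% to 49.4% of this sum in every library.

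*Dnajb1* (chr8:83608193-83612653), the inducible Hsp40 that works with these Hsp70 proteins, was the member that separated most cleanly after original learning in both genotypes. WT_Basal mice stood at 45.3, 44.8 and 45.8 CPM, WT_OL mice at 65.7, 70.4 and 62.9, and WT_RL mice at 64.4, 60.4 and 82.0. KO_Basal mice stood at 50.5, 53.3 and 49.7 CPM, KO_OL mice at 94.4, 91.2 and 83.9, and KO_RL mice at 70.6, 64.5 and 59.4. All trained mice exceeded all untrained mice, and the KO_OL mice lay above the rest.

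Of the Hsp110 nucleotide exchange factors, *Hsph1* (chr5:149614287-149636376) varied more than *Hspa4* (chr11:53259814-53300457). *Hsph1* stood at 264, 310 and 281 CPM in WT_Basal, at 298, 245 and 372 in WT_OL, and at 452, 427 and 479 in WT_RL. Its KO values were 269, 274 and 272 CPM in KO_Basal, 488, 470 and 434 in KO_OL, and 466, 393 and 413 in KO_RL. The WT_OL mice were the only trained group that overlapped its untrained controls. *Hspa4* stayed between 283 and 365 CPM in all libraries except WT_OL replicate 2, which stood at 204 CPM.

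*Hspa8* (chr9:40800984-40810087), the constitutive Hsc70, stood at 1283, 1415 and 1411 CPM in WT_Basal, at 1519, 1501 and 1674 in WT_OL, and at 1972, 2065 and 2008 in WT_RL. In the KO mice it stood at 1310, 1312 and 1339 CPM in KO_Basal, at 2046, 1864 and 1890 in KO_OL, and at 1919, 1757 and 1763 in KO_RL. No trained group overlapped its untrained group. *Hspa8* also contains the small RNA genes *Snord14c*, *Snord14d* and *Snord14e*. The cytosolic Hsp90 genes moved less: *Hsp90ab1* (chr17:45567775-45573271), the constitutive form, ranged from 1634 to 2508 CPM, highest in KO_OL replicate 1. *Hsp90aa1* (chr12:110690605-110702728), the more inducible form, ranged from 767 CPM in WT_OL replicate 2 to 1309 CPM in WT_RL replicate 3.

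The chaperones of the endoplasmic reticulum are *Hspa5* (chr2:34771970-34777547), the Hsp70 called BiP, and *Hsp90b1* (chr10:86690209-86705509), the Hsp90 called GRP94. *Hspa5* stood at 219, 206 and 260 CPM in WT_Basal, at 275, 279 and 304 in WT_OL, and at 363, 362 and 511 in WT_RL. In the KO mice it stood at 238, 244 and 235 CPM in KO_Basal, at 420, 411 and 462 in KO_OL, and at 472, 355 and 389 in KO_RL. Unlike the inducible Hsp70 pair, the KO_OL and KO_RL mice of *Hspa5* overlapped. *Hsp90b1* stood at 338, 350 and 373 CPM in WT_Basal, at 324, 296 and 378 in WT_OL, and at 453, 453 and 551 in WT_RL, with WT_RL above and WT_OL overlapping the untrained mice. Its KO values were 348, 346 and 357 CPM in KO_Basal, 387, 414 and 422 in KO_OL, and 468, 401 and 430 in KO_RL. *Hsp90b1* overlaps *1810014B01Rik* on the other strand, and *Gm15344* and *Gm25745* on its own.

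**Figure D2:**
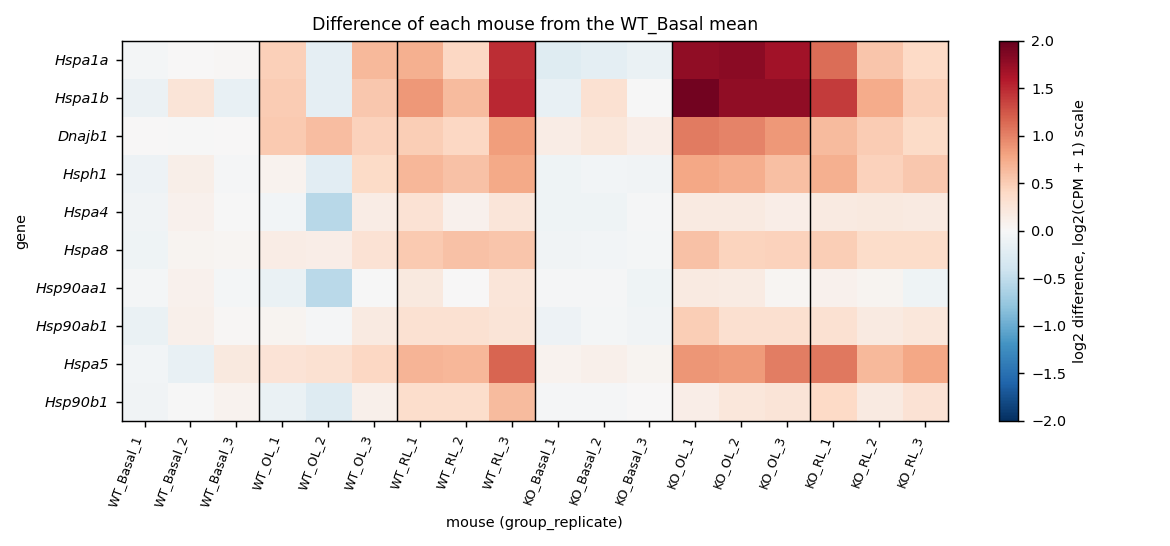
Log2 difference of each mouse (x axis, 18 libraries by group and replicate) from the WT_Basal mean for each gene (y axis), on a colour scale from -2 to 2. The *Hspa1a* and *Hspa1b* cells of the 3 KO_OL mice are the darkest, and WT_RL replicate 3 and KO_RL replicate 1 are darker than the other mice of their groups in these genes.

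In the trained groups the same mouse was often the lowest or highest in many members. WT_OL replicate 2 was the lowest of its group in 8 of 10 members and WT_OL replicate 3 the highest in 9. WT_RL replicate 3 was the highest of its group in 7 members, and KO_RL replicate 1 in 9. In the untrained groups the order was less even: WT_Basal replicate 1 was the lowest in 6 members and replicate 2 the highest in 6. KO_Basal replicate 1 was the lowest in 5 and replicate 2 the highest in 5. The order over all genes was not computed, and WT_OL replicate 2 and WT_RL replicate 3 also stood apart over all genes. The libraries of WT_RL replicate 3 and KO_RL replicate 1 were also the highest of their groups in the choroid plexus sum, at 8458 and 5050 CPM. In the groups after original learning, WT_OL replicate 3 had the lowest sum of its group (1885 CPM), and so had KO_OL replicate 1 (2417 CPM), which was the highest of its group in 7 members.

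Original learning in WT mice was accompanied by a rise of 1 of the 10 members. *Dnajb1* rose by a log2 fold change of 0.54 (SE 0.0951, adjusted p = 0.00291), where 3.88% of all genes were called higher, and it was called under all 17 alternatives that keep this threshold. It missed the criteria of the study, which are over 1.5-fold with an unadjusted p-value under 0.05. By these, 0 members were called and 0.776% of all genes passed in this direction. Here and below the criteria were applied to the limma values, so such counts and shares are not the study's own calls. *Hspa5* (0.33, adjusted p = 0.113) and *Hspa8* (0.19, adjusted p = 0.159) were separate between the mice of both groups but were not called. In all, 3 of 10 members lay above without overlap, against 13.1% of all genes. The other values ran from -0.23 for *Hsp90aa1* to 0.32 for *Hspa1a* (95% interval -0.19 to 0.82), and the median over members was 0.14 against -0.0003 over all genes. Without WT_RL replicate 3 and WT_OL replicate 2, 2 members were called.

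Original learning in KO mice was accompanied by a rise of 7 of 10 members, where 11.2% of all genes were called higher. The log2 fold change was 1.94 for *Hspa1a* (SE 0.238, adjusted p = 6.2e-05), 1.78 for *Hspa1b* (SE 0.248, adjusted p = 0.00016) and 0.80 for *Dnajb1* (SE 0.0951, adjusted p = 4.9e-05). It was 0.84 for *Hspa5* (adjusted p = 0.000291), 0.77 for *Hsph1* (adjusted p = 0.00029), 0.55 for *Hspa8* (adjusted p = 0.000317) and 0.44 for *Hsp90ab1* (adjusted p = 0.00315). These 7 were called under all 17 alternatives that keep the adjusted threshold. *Hspa4* (0.23), *Hsp90b1* (0.22) and *Hsp90aa1* (0.17) were not called. All 10 members were above in every KO_OL mouse, which held for 24.2% of all genes, and 5 members passed the criteria of the study, which 2.40% of all genes passed in this direction. The median over members was 0.66 against -0.0073 over all genes.

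Choroid plexus markers moved with this comparison: their sum was 46.7 to 669.6 CPM in KO_Basal and 2417 to 4670 CPM in KO_OL, with none of the 8 markers at 0 in any library. With the log2 of that sum as a covariate, added after the data were seen, 7 members were still called, and the values became 1.62 for *Hspa1a* and 0.56 for *Hspa5*. Astrocyte markers were lower without overlap in KO_OL (1452 to 1501 CPM against 1688 to 1708), as were endothelial (168 to 191 CPM against 207 to 227) and microglial markers (231 to 237 CPM against 247 to 263), and their part in the result was not tested. In WT mice the choroid plexus sum was 861 to 4366 CPM in WT_Basal and 1885 to 3306 CPM in WT_OL.

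After reversal learning, 8 of 10 members were higher than in untrained mice in each genotype, with 8.28% of all genes called higher in WT mice and 11.6% in KO mice. In both cases the members that were not called were *Hsp90aa1* and *Hspa4*. In WT_RL the log2 fold changes were 1.01 for *Hspa1b* (SE 0.248, adjusted p = 0.0127), 0.87 for *Hspa1a* (adjusted p = 0.022), 0.84 for *Hspa5* (adjusted p = 0.000667), 0.67 for *Hsph1*, 0.58 for *Dnajb1*, 0.56 for *Hspa8*, 0.45 for *Hsp90b1* and 0.29 for *Hsp90ab1*. In KO_RL they were 0.88 for *Hspa1a* (SE 0.238, adjusted p = 0.0141), 0.83 for *Hspa1b*, 0.75 for *Hspa5* (adjusted p = 0.000733), 0.64 for *Hsph1*, 0.46 for *Hspa8*, 0.33 for *Dnajb1*, 0.31 for *Hsp90ab1* and 0.30 for *Hsp90b1*. *Hspa5*, *Hspa8* and *Hsph1* were called under all 17 alternatives with the adjusted threshold in both genotypes. By the criteria of the study 4 members passed in each, which 1.22% of all genes passed in this direction in WT mice and 2.67% in KO mice. Without WT_RL replicate 3 and WT_OL replicate 2, WT_RL still gave 8 calls, but leaving out single libraries gave 5 to 7 in WT mice and 3 to 8 in KO mice. The fewest came without WT_Basal replicate 1 or 3 (5 each), KO_Basal replicate 1 (3) or KO_RL replicate 1 (3), and KO_Basal replicate 3 left 4. With the choroid plexus covariate the KO_RL calls were 3, the sum being 1339 to 5050 CPM in KO_RL. Astrocyte (1390 to 1600 CPM) and endothelial markers (185 to 204 CPM) lay below those of KO_Basal there, and their part was not tested.

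**Figure D3:**
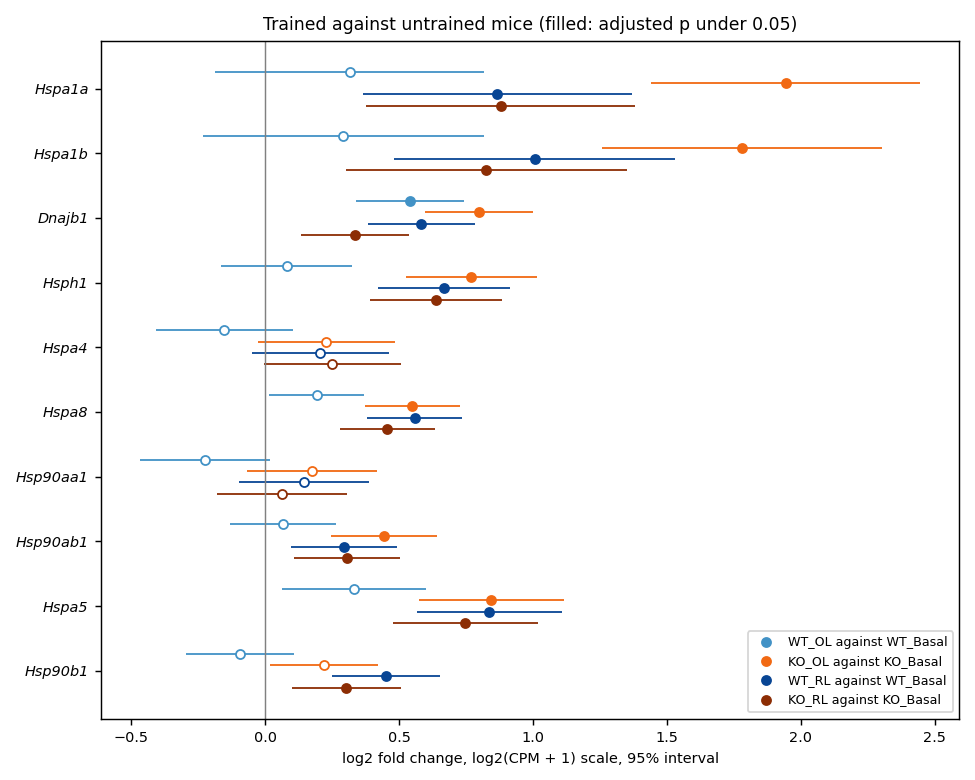
Log2 fold change with its 95% interval (x axis) of each gene (y axis) for the 4 comparisons of trained with untrained mice, filled where the adjusted p-value is under 0.05. The KO_OL values of *Hspa1a* (1.94) and *Hspa1b* (1.78) lie to the right of the other 3 comparisons, while the WT_OL values of the members other than *Dnajb1* are open circles.

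From original to reversal learning, the fitted values were higher in WT mice for all 10 members and lower in KO mice for 8. In WT_RL against WT_OL 7 members were above without overlap (5.74% of all genes), and 2 were called where 0.104% of all genes were called higher. The called members were *Hsp90b1* (0.55, SE 0.0956, adjusted p = 0.0257) and *Hsph1* (0.59, SE 0.116, adjusted p = 0.0451). These calls depended on the libraries: none was left without WT_RL replicate 3 and WT_OL replicate 2 together, and leaving out single libraries gave 0 calls (WT_OL replicate 1 or 2, WT_RL replicate 2 or 3), 1 call (WT_RL replicate 1) or 6 calls (WT_OL replicate 3). In KO_RL against KO_OL limma called 0 of 10 members, where 0.0196% of all genes were called, and 3 had an unadjusted p-value under 0.05 against 4.81% of all genes. These were *Hspa1a* (-1.06, SE 0.238, adjusted p = 0.198), *Hspa1b* (-0.96, SE 0.248, adjusted p = 0.357) and *Dnajb1* (-0.47, SE 0.0951, adjusted p = 0.172). Together with *Hsp90ab1* (-0.14) they made up the 4 members that lay below without overlap, against 6.33% of all genes. *Hspa5* (-0.10) and *Hsp90b1* (0.08) did not separate. Without WT_RL replicate 3 and WT_OL replicate 2 *Hspa1a* (adjusted p = 0.00682) and *Dnajb1* (adjusted p = 0.00885) were called.

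Members were called between the genotypes after original learning and in neither of the other states. In KO_OL against WT_OL, 2 members were called where 0.0261% of all genes were called higher: *Hspa1b* (1.54, SE 0.248, adjusted p = 0.0395) and *Hspa1a* (1.44, SE 0.238, adjusted p = 0.0395). Ranked by the size of the log2 difference, they were 6 and 9 among all genes. All 10 members had an unadjusted p-value under 0.05, which 9.96% of all genes had in this direction, and all were higher in KO_OL. Of them 9 were above without overlap, against 7.61% of all genes. The next largest were *Hsph1* (0.62, adjusted p = 0.0684), *Hspa5* (0.59, adjusted p = 0.0972) and *Dnajb1* (0.43, adjusted p = 0.0972). The count was sensitive to single libraries: 10 members were called without WT_OL replicate 3, and 0 without any one of the other 5 mice. The share of all genes called without a library was not computed, so these counts are not set against one. Without WT_OL replicate 2 and WT_RL replicate 3 together the count was 3. By the mapping rates of the study, every WT_OL library mapped at a lower rate than every KO_OL library, with WT_OL replicate 3 closest to them. The part of this was not tested. Summed markers of other cell types were lower in KO_OL than in WT_OL without overlap, at 45.9 to 49.4 against 79.9 to 105.9 CPM for the 4 of vascular smooth muscle, 168 to 191 against 221 to 251 CPM for the 6 of endothelial cells, 4147 to 5402 against 6229 to 9064 CPM for the 4 of oligodendrocytes, 1452 to 1501 against 1547 to 2018 CPM for the 4 of astrocytes and 2.41 to 3.71 against 4.74 to 32.8 CPM for the 1 listed of red blood cells. No marker of these lists was at 0, and their part in the result was not tested. In KO_RL against WT_RL limma called 0 of 10, 0 had an unadjusted p-value under 0.05, and 0% of all genes were called, with values from -0.18 to -0.01.

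The change from untrained to original learning was larger in KO mice for all 10 members, and the difference between the genotypes in that change was not called by limma for any, nor for any other gene (0%). It was 1.63 for *Hspa1a* (SE 0.336, adjusted p = 0.368), 1.49 for *Hspa1b* (SE 0.35, adjusted p = 0.368) and 0.69 for *Hsph1* (SE 0.164, adjusted p = 0.368), with 9 of 10 unadjusted p-values under 0.05 against 12.4% of all genes. For the change from original to reversal learning the difference was negative for all 10, at -1.67 for *Hspa1b*, -1.62 for *Hspa1a* and -0.72 for *Hsph1* (each with an adjusted p = 0.457). Again 0 were called (0% of all genes) and 9 of 10 had an unadjusted p-value under 0.05, against 7.98% of all genes. Both differences share the WT_OL and KO_OL mice. Without WT_OL replicate 3, 4 members were called for the first difference, *Hspa1a* (1.79, adjusted p = 0.0352), *Hspa1b*, *Hsph1* and *Hspa4*, and 1 for the second, *Hsph1*. The share of all genes called without that library was not computed.

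**Figure D4:**
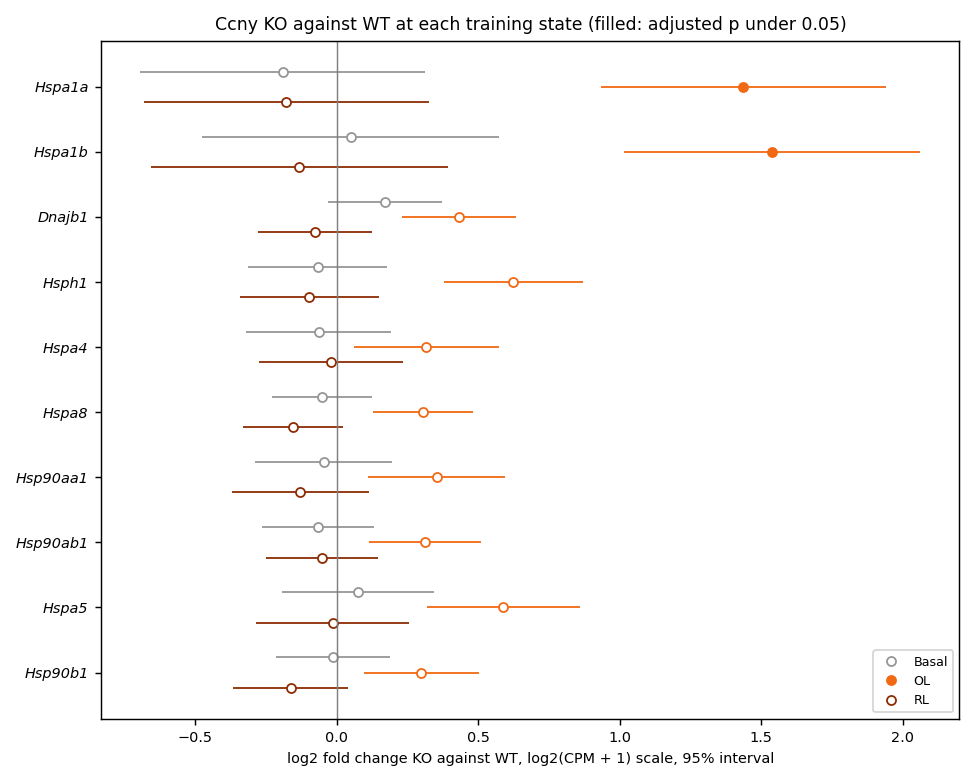
Log2 fold change of KO against WT mice with its 95% interval (x axis) for each gene (y axis) in untrained mice, after original learning and after reversal learning, filled where the adjusted p-value is under 0.05. The original learning points all lie right of 0, led by *Hspa1b* (1.54) and *Hspa1a* (1.44), and the intervals of the other states include 0.

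Other chaperones were described from lists by compartment. Against untrained mice, 3.88% of all genes were called higher and 5.62% lower in WT_OL, 11.2% and 12.3% in KO_OL, 8.28% and 7.42% in WT_RL, and 11.6% and 12% (1836 genes) in KO_RL, and the counts of each list are to be read against these shares. Among 29 cytosolic chaperones and co-chaperones, 1 rose and 2 fell in WT_OL, 8 rose and 2 fell in KO_OL, 8 rose and 1 fell in WT_RL, and 7 rose and 2 fell in KO_RL. The single rise in WT_OL is near the share of all genes. The small heat shock protein *Hspb1* rose in all 4, by 1.04 (adjusted p = 0.0223), 1.33 (adjusted p = 0.00238), 1.09 (adjusted p = 0.0128) and 0.99 (adjusted p = 0.0145), from 2.59 ± 0.46 CPM (SD, n = 3) in WT_Basal to 6.46 ± 1.46 in WT_OL. *Bag3*, an Hsp70 co-chaperone and HSF1 target, rose in KO_OL (0.84, adjusted p = 0.000464), WT_RL (0.66) and KO_RL (0.67). The Hsp90 co-chaperone *Ptges3* was among those that fell in WT_OL, by 0.24 on the log2 scale (adjusted p = 0.0286).

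Among 23 endoplasmic reticulum chaperones and unfolded protein response genes, 1 rose and 2 fell in WT_OL, 14 rose and 2 fell in KO_OL, 10 rose and 1 fell in WT_RL, and 12 rose and 2 fell in KO_RL. The WT_OL count is again near the share of all genes. *Pdia4*, a disulfide isomerase, had the largest rise of the list in KO_OL (1.01, adjusted p = 0.000107) and rose in WT_RL (0.75) and KO_RL (0.88). *Sdf2l1*, a partner of BiP, rose by 0.90 in KO_OL, 0.66 in WT_RL and 0.71 in KO_RL. *Xbp1*, which encodes a factor of the response itself, was the gene that rose in WT_OL (0.32, adjusted p = 0.0128). *Dnajb9*, a J-domain partner of BiP, went the other way and fell in all 4 comparisons, by 0.46, 0.66, 0.52 and 0.62 on the log2 scale. *Calr* (0.46) and *Pdia6* (0.42), both with an adjusted p = 0.0253, were the list genes called higher in WT_RL against WT_OL.

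Of 8 mitochondrial chaperones, 0 rose in WT_OL (where limma called none of them), 1 in KO_OL (*Dnaja3*, 0.25), 2 in WT_RL and 1 in KO_RL. The KO_OL and KO_RL counts are near the shares of all genes. Of 13 chaperonin and prefoldin subunits, *Vbp1* fell in all 4 comparisons, by 0.52 to 0.79 on the log2 scale. In KO_OL *Tcp1* (0.22) and *Cct7* (0.21) rose and *Pfdn4* (-0.32) fell, in WT_RL *Cct7* (0.24) rose, and in KO_RL *Pfdn1* (-0.52) fell. The counts of the chaperonin and prefoldin list are near or below the shares of all genes in every comparison with untrained mice. Of 5 heat shock factors and regulators, *Hsf1* rose in WT_RL (0.32, adjusted p = 0.0133) and KO_RL (0.30, adjusted p = 0.0125) and *Hsf4* in WT_RL (0.61), with none called after original learning. The cold-inducible RNA-binding protein genes fell: *Rbm3* from 137.6 ± 19.6 CPM (SD, n = 3) in WT_Basal to 100.6 ± 16.7 in WT_OL and 62.5 ± 9.12 in WT_RL, and from 130.3 ± 9.67 in KO_Basal to 81.5 ± 4.79 in KO_OL and 68.7 ± 8.53 in KO_RL. All 4 comparisons with untrained mice were called for *Rbm3* (-0.45, -0.67, -1.13 and -0.92), and 3 for *Cirbp* (-0.39 in KO_OL, -0.68 in WT_RL and -0.60 in KO_RL). No list gene was called between the genotypes in any training state.

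**Figure D5:**
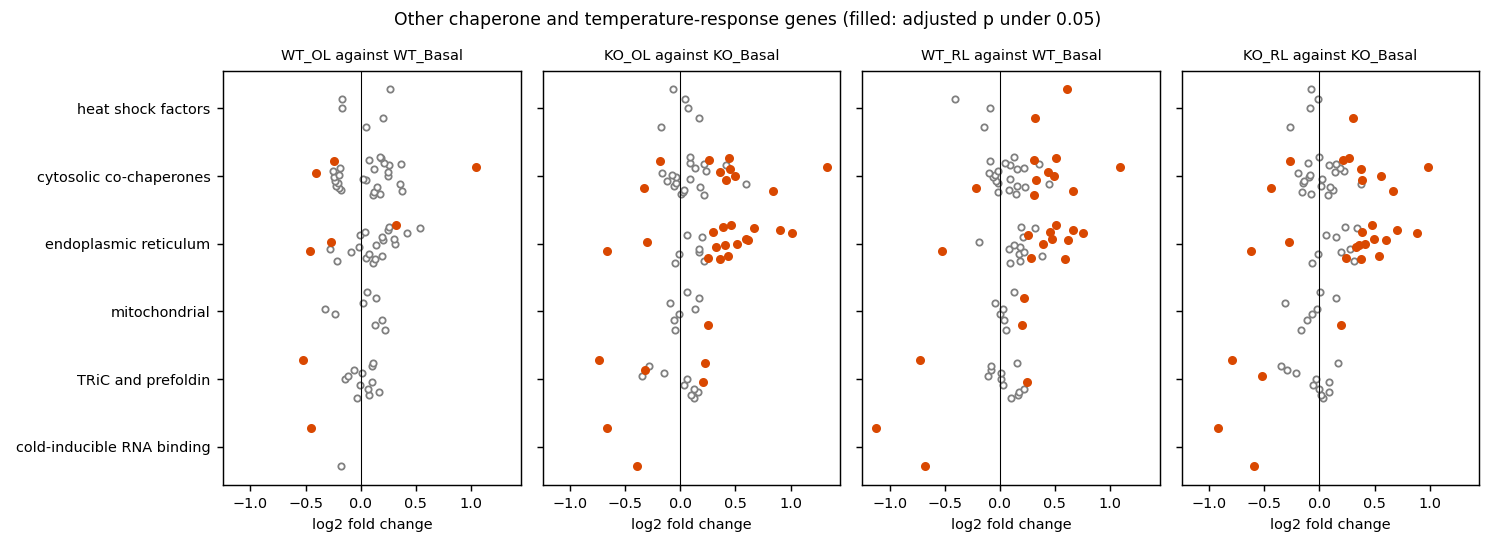
Log2 fold change (x axis) of the genes of 6 lists (y axis) for trained against untrained mice, 1 point per gene, filled where the adjusted p-value is under 0.05. Filled points of the endoplasmic reticulum list number 16 in KO_OL and 3 in WT_OL, and *Rbm3* lies left of 0 in every panel.

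The genes outside the 10 whose pattern over the 18 libraries was most like the members were found by Pearson's r with mean standardized values, as a description without a test, since all points share group and library. For *Hspa1a*, *Hspa1b*, *Hsph1* and *Dnajb1* together they were *Trmt1l* (0.954), *P4ha1* (0.951), *Nfe2l1* (0.927), *Slc22a17* (0.924) and *Slc15a4* (0.917) among 13931 genes ranked. *P4ha1* had means of 47.5, 64.7 and 79.3 CPM in WT_Basal, WT_OL and WT_RL and of 49.4, 97.3 and 82.2 CPM in KO_Basal, KO_OL and KO_RL. For *Hspa5* and *Hsp90b1* they were *Pdia6* (0.972), *Calr* (0.945), *Emilin2* (0.934), *Parva* (0.929) and *Itpk1* (0.927). *Pdia6* had means of 101, 103 and 138 CPM in the WT groups and 103, 126 and 135 CPM in the KO groups, in the same order.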

How the data were processed

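Poly(A) RNA of the hippocampus was sequenced from 18 mice. The authors mapped 100-bp paired reads to mm10 with STAR 2.5.1, counted them on genes with its count module and normalized them by TMM in edgeR 3.12.1 under R 3.3.0. The strand setting and the annotation are not given in the sources used here. The deposited values are log2 of TMM-normalized CPM plus 1 for 15329 genes: 100% of them gave whole reads (tolerance 0.001), although the methods describe CPM floored at 1. Groups were taken from the labels of each sample. The values were fitted with limma 3.58.1 under R 4.3.3, as group means over all libraries and two-sided moderated tests with a variance trend, for genes above 0 in at least 3 libraries, and the fit was first tested on simulated data. An exact permutation test of 3 mice against 3 cannot go below 0.1 and was not used. The 10 members are named throughout, the lists by counts and up to 3 called genes of largest change, and likeness by the 5 highest r among genes with a mean log2 value above 1. Members and lists were chosen with earlier results of these data known. *Hspb1*, *Rbm3*, *Cirbp* and other list genes are also followed into comparisons outside their top 3, chosen after their values were seen. Exon lengths and positions are from GENCODE M21 (GRCm38). Alternatives covered scale, pseudocount (0.25), filter, medians, voom on recovered reads, sample choice, block and call rule, and 3 were added after the data were seen. Each group mean rests on 3 mice, while the intervals use a moderated spread per gene estimated over all 18 libraries. They do not show the spread within the groups compared, and the log2 SD of *Hspa1a* was 0.0281 in WT_Basal and 0.548 in WT_RL. Chi-square per gene between replicates was 8.78 to 109, above counting noise.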

Additional observations from a re-analysis of the deposited data

Results flagged for a closer look

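For 2 members every WT_RL mouse lay above every WT_OL mouse while every KO_RL mouse lay below every KO_OL mouse, which held for 0.274% of all genes. The difference between the genotypes in the change from original to reversal learning was -1.67 for *Hspa1b* (95% interval -2.41 to -0.93) and -0.37 for *Hsp90ab1* (95% interval -0.65 to -0.09) on the log2 scale. The test of that difference in limma gave unadjusted p-values of 0.000199 and 0.0136 and adjusted p-values of 0.457 and 0.582, so neither was called.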

How the results depend on the processing

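The 7 members called in KO_OL against KO_Basal and *Dnajb1* in WT_OL against WT_Basal were called under all 17 alternatives that keep the adjusted threshold, where the KO_OL count lay between 7 and 9. Counts by the 1.5-fold and unadjusted criteria, applied to the limma values, stand beside the share of all genes that passed in the same direction. Against untrained mice, higher counts were 5 (2.40%) for KO_OL, 0 (0.776%) for WT_OL, 4 (1.22%) for WT_RL and 4 (2.67%) for KO_RL. For KO_RL against KO_OL 2 were lower (0.0913%), and for KO_OL against WT_OL 4 were higher (0.457%). For the genotype difference 3 were positive in the change to OL (1.33%) and 4 negative in that from OL to RL (0.607%). With CPM floored at 1, KO_OL against WT_OL gave 0 calls and WT_RL against WT_OL gave 1. With only the groups compared both gave 0, which leaves fewer samples to estimate the spread. With GC content corrected per library, KO_OL against WT_OL gave 1 and KO_RL against KO_Basal 4. With the choroid plexus covariate KO_RL against KO_Basal gave 3. With both libraries that stand apart left out, WT_OL against WT_Basal gave 2, WT_RL against WT_OL 0 and KO_RL against KO_OL 2. Of 45 same-numbered pairs of group deviations, 12 correlated above 0.1. Pairs with different numbers were not computed, so this cannot show whether replicate numbers pair the mice. The replicate block gave 1 call for WT_RL against WT_OL and 7 for WT_RL against WT_Basal. Leaving out single mice gave 0 to 6 calls for WT_RL against WT_OL, 5 to 7 for WT_RL and 3 to 8 for KO_RL against untrained mice, 0 to 10 for KO_OL against WT_OL, 0 to 4 for the genotype difference in the change to OL and 0 to 1 for that from OL to RL. Except where stated, the cause was not tested.

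Leaving out KO_Basal against WT_Basal and KO_RL against WT_RL, whose members are given as ranges, 1650 values of single genes were recomputed, of which 7 changed sign, none of a called gene, 77 lost the call and 34 gained it. In WT_OL against WT_Basal these were *Hsp90b1* (0.10 with GC corrected), *Hsph1* (-0.074 to 0.23 on leaving out single mice) and *Hspa4* (-0.30 to 0.046, and 0.046 with both libraries that stand apart left out). In WT_RL against WT_OL they were *Hspa1a* (-0.0011) and *Dnajb1* (-0.043) with both libraries left out, and *Dnajb1* on leaving out single mice (-0.086 to 0.13). In the comparisons set aside, 3 members of KO_Basal against WT_Basal and 5 of KO_RL against WT_RL changed sign under at least 1 alternative. Each group held 3 mice, and what limits these values was not tested.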
